A study of Mus musculus with 12 samples.

Results

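Adult mouse forebrain carrying a Notch conditional knockout was compared with wildtype forebrain, both without valproic acid, across all genes of a table of RNA sequencing counts. The comparison used 6 of the 12 libraries of the series, 3 wildtype (genotype WT) and 3 knockout (genotype written as htr3a Notch KO). Of 56748 genes in the table, 17995 had enough counts to be tested. The other 6 libraries, 3 of each genotype, came from mice exposed before birth to valproic acid, an antiepileptic drug that inhibits histone deacetylases, and they are used here where the same genotype difference was measured a second time. Neither unexposed group has a treatment in its labels. The sources used here do not give which Notch gene was deleted, in which cells, or the age, sex and number of animals per library, so p-values measure the spread between libraries, which may be technical.

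Notch receptors are membrane proteins that are cut when a ligand on a neighbouring cell binds them, and the released fragment joins the DNA-binding protein Rbpj to switch on genes such as those of the Hes and Hey families. In the brain the pathway is best known for keeping progenitor cells undifferentiated, and it also acts in neurons and glia of the adult. Htr3a, whose name stands in the genotype label, encodes a subunit of the serotonin-gated ion channel and marks cortical interneurons born in the caudal ganglionic eminence.

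Total counts were 18139178 to 24944681 in the wildtype libraries and 16887885 to 21840608 in the knockout libraries. Counts of the mitochondrial genome took 12.5% to 14.4% in wildtype and 12.2% to 15.2% in knockout. The cortical transcription factor Emx1 was at 13.7 to 17.5 CPM (counts scaled to a common library size) in these 6 libraries, while the hindbrain genes Hoxb3 and Hoxb5 had 0 counts and the cerebellar gene Gabra6 had 0 to 4. Xist was present in all 6, at 5919 to 10767 counts. In a principal component analysis of the 6 libraries the main axis, with 28.5% of the variance, set wildtype replicate 3 (20.9) and knockout replicate 3 (15.4) apart from the other 4 (-12.0 to -3.38). That axis did not separate the genotypes.

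The transcripts of the Notch pathway were read first, because the label names a Notch gene as deleted. Notch1 was at 19.997, 16.9 and 16.6 CPM in wildtype and 17.5, 17.6 and 16.4 CPM in knockout. Notch2 was at 25.5, 20.7 and 25.5 CPM in wildtype and 20.5, 23.4 and 22.8 CPM in knockout. The groups overlapped for both genes, with log2 fold changes (knockout over wildtype) of -0.06 (95% interval -0.28 to 0.16) and -0.11 (-0.37 to 0.15). Notch3, the receptor of vascular mural cells, was at 11.7, 10.04 and 7.26 CPM in wildtype and 10.98, 11.9 and 9.74 CPM in knockout (log2 0.17, -0.20 to 0.55). Notch4, an endothelial receptor, was at 7.44, 8.55 and 6.39 CPM in wildtype and 4.90, 6.80 and 6.58 CPM in knockout (log2 -0.29, -0.63 to 0.05). Rbpj was at 22.0, 20.2 and 18.7 CPM in wildtype and 19.1, 21.1 and 19.7 CPM in knockout (log2 -0.02, -0.23 to 0.18). No receptor and not Rbpj passed edgeR's quasi-likelihood test, and each pair of groups overlapped. Counts over a whole gene include exons outside a deleted stretch, and in whole tissue fewer cells of a type and less RNA per cell cannot be told apart, so these levels do not check the label.

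The ligands, processing enzymes and targets of Notch were likewise spread around 0. Of the 12 receptors and nuclear partners tested, 0 passed, 2 had a positive value and 10 a negative one, with a median log2 fold change of -0.06. Over all 17995 tested genes 49.7% were positive and the median was 0.00. Among the 31 ligands and processing genes, 16 were positive and the median was 0.01. The member with the smallest p was Neurl1a, a ubiquitin ligase that acts on ligands. It was at 387, 371 and 322 CPM in wildtype and 316, 311 and 328 CPM in knockout (log2 -0.18, -0.35 to -0.01, edgeR unadjusted p = 0.0438, adjusted p = 0.9996). Among 18 target genes, 5 were positive and 13 negative, with a median of -0.07 and 0 past the test. Nrarp, a feedback inhibitor of the pathway, was at 6.56, 7.01 and 6.13 CPM in wildtype and 5.75, 5.41 and 4.72 CPM in knockout, with no overlap (log2 -0.30, -0.61 to 0.00, adjusted p = 0.9996). Non-overlapping groups with the knockout lower were found for 3.81% of all tested genes. Hes1, a repressor of neuronal differentiation, was at 9.17, 9.27 and 8.78 CPM in wildtype and 8.34, 9.55 and 6.87 CPM in knockout. Hes5, a target used to read Notch activity in progenitors, was at 11.7, 12.1 and 10.4 CPM in wildtype and 15.7, 8.74 and 6.46 CPM in knockout. Its knockout libraries lay on both sides of all wildtype libraries, and its log2 fold change of -0.13 (-0.63 to 0.37) was 0.10 without knockout replicate 3.

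Across the genome 7 genes passed the test, 0.0389% of those tested, with 5 higher (0.0278%) and 2 lower (0.0111%) in the knockout. At an unadjusted p under 0.05 there were 563 genes, or 3.13%. All 5 that rose lie on chromosome 9: Zbtb16, Gm32335, Htr3a, Htr3b and Usp28. They stand next to each other in that order among tested genes, and no other of the 1007 tested genes of the chromosome passed. Mzt1 on chromosome 14 fell, and so did a gene known only by its identifier, ENSMUSG00002076173.

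RefSeq held a start-site entry for 4 of the 7 genes, and the 250 bases before each start are printed because Usp28, Htr3b and Gm32335 rose together and Mzt1 fell. The build is GRCm38.p6, each is written 5′ to 3′ on its gene's strand, and capitals mark a GC box, GGGCGG or its reverse complement CCGCCC. They lie at chr9:48985135-48985384 (plus strand) for Usp28, chr9:48964991-48965240 (minus) for Htr3b, chr9:48895980-48896229 (plus) for Gm32335 and chr14:99046137-99046386 (minus) for Mzt1.
Usp28: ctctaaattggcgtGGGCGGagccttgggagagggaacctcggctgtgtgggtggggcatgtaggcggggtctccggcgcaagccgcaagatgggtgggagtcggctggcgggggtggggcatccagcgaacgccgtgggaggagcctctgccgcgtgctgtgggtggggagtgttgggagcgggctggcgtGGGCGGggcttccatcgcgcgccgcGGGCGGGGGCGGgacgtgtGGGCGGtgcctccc
Htr3b: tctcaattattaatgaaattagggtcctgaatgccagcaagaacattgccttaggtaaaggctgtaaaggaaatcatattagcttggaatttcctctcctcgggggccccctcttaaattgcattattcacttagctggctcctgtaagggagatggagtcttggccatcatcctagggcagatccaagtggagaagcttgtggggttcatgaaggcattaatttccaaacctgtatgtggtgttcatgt
Gm32335: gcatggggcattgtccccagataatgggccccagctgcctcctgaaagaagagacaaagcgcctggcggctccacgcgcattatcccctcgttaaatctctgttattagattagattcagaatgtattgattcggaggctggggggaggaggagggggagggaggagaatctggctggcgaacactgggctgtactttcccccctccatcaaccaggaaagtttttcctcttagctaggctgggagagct
Mzt1: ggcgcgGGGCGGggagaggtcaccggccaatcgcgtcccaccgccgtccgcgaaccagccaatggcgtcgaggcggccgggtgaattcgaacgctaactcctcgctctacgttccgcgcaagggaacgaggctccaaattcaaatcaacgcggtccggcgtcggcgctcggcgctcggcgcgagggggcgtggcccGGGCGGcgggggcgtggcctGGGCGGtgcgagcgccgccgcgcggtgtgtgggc
The neighbours differed in composition. The Usp28 stretch was 73.2% G and C with 5 GC boxes and that of Mzt1 74.0% with 3, against a median of 52.4% over 32851 RefSeq promoter stretches, of which 32.7% held a GC box. Those of Htr3b (44.0%) and Gm32335 (54.4%) held 0. The core to which Rbpj binds, GTGGGAA or its reverse complement TTCCCAC, was in 0 of the 4 and in 5.42% of all promoter stretches of that length. These matches are descriptions of the letters only.

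Htr3b encodes the subunit that joins Htr3a in the heteromeric serotonin-gated channel. It had 0 counts in each of the 3 wildtype libraries and 84, 106 and 60 counts in the knockout libraries, which is 3.96, 4.78 and 3.59 CPM. Against a floor of 3 counts over the wildtype group it was at least 91.4-fold higher (edgeR adjusted p = 1.2e-09). Htr3a was at 3.42, 4.91 and 4.52 CPM in wildtype and 9.42, 10.4 and 10.6 CPM in knockout. Every knockout library was above every wildtype library, and the rise was 2.38-fold (95% interval 1.92 to 2.94, adjusted p = 5.34e-05). Gm32335, a predicted gene that overlaps Htr3a on the opposite strand, had 0 counts in wildtype and 0.989, 1.26 and 1.02 CPM in knockout (66 counts in all, at least 24.1-fold higher, adjusted p = 0.000105). Whether the counting used strand was not stated, so where Gm32335 and Htr3a overlap their reads may not have been separated by strand. The wildtype libraries together held 278 counts of Htr3a beside 0 of Gm32335, and the exposed wildtype libraries 412 beside 4. The share of reads from the overlap was not tested. The count floors and intervals of count ratios cover counting error only.

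Usp28 and Zbtb16, on either side of these genes, also rose. Usp28, a deubiquitinase that stabilises proteins such as Myc, was at 17.9, 22.8 and 16.9 CPM in wildtype and 39.1, 44.9 and 39.8 CPM in knockout. The rise was 2.16-fold (1.88 to 2.49, edgeR adjusted p = 2.51e-07), with no overlap. Zbtb16, a zinc finger transcription factor, was at 17.8, 21.5 and 15.9 CPM in wildtype and 31.0, 35.1 and 26.4 CPM in knockout. It rose 1.69-fold (1.45 to 1.97, adjusted p = 0.000977). Leaving out any single library kept Htr3a (log2 1.10 to 1.35), Usp28 (1.03 to 1.24) and Zbtb16 (0.65 to 0.87) past the test.

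The edges of the block were read from the 10 tested genes on each side of Htr3a. Beyond the 4 that passed, the other 16 had a median log2 fold change of 0.03 and ranged from -0.53 for the ribosomal pseudogene Rpl10-ps3 to 0.47 for Nnmt. Nnmt, a nicotinamide methyltransferase and the next tested gene past Zbtb16, ranged from 0.443 to 0.9995 CPM in wildtype libraries and from 0.837 to 1.08 CPM in knockout libraries. Its interval of -0.41 to 1.35 reaches the size seen in Htr3a, so a rise of that size in Nnmt was not detectable at this depth. The next tested genes on that side were Gm5617, a predicted gene (log2 -0.18, -0.56 to 0.20), and Rbm7, an RNA-binding protein (-0.03, -0.19 to 0.13). Both intervals lie below the lower end of 0.53 for Zbtb16. Zw10, a kinetochore protein and the next tested gene past Usp28, ranged from 11.4 to 12.6 CPM in wildtype libraries and from 12.7 to 14.1 CPM in knockout libraries (log2 0.16, -0.06 to 0.38). The upper end of that interval lies below the lower end for Usp28 and for Zbtb16. Drd2, the D2 dopamine receptor a few genes further on, had a log2 fold change of -0.28 (-0.71 to 0.15). Nnmt was not the only neighbour left unresolved. Tmprss5, the tested gene after Zw10 (log2 -0.11, -0.77 to 0.55), and Ankk1, past Drd2 (0.22, -0.43 to 0.88), have intervals that reach above 0.53. That of Gm31816, the outermost gene read on the side of Nnmt (0.30, -0.72 to 1.32), reaches the size seen in Htr3a. The plot of neighbours in gene order shows these values.

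**Figure D1:**
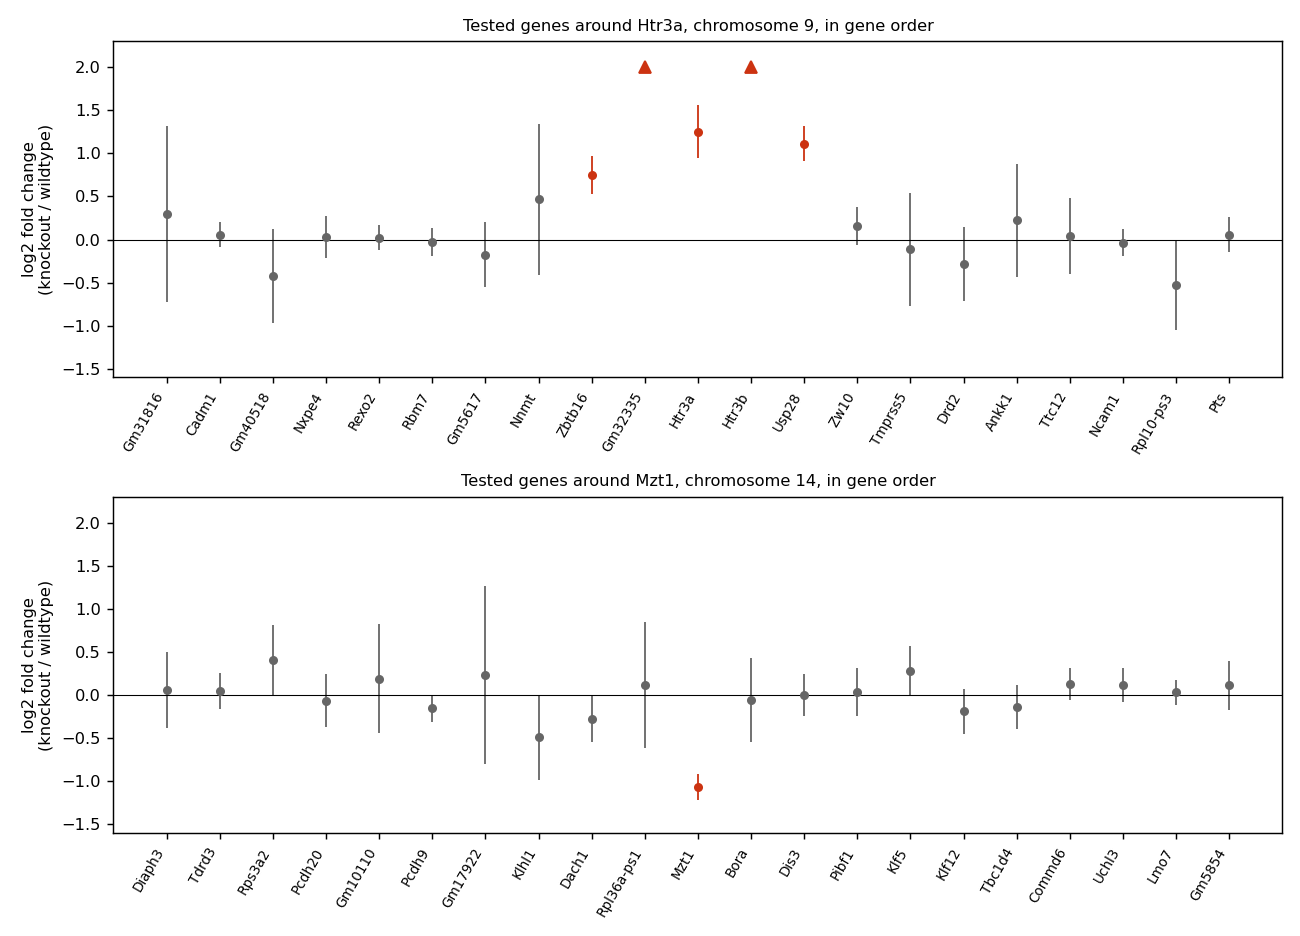
Log2 fold change of knockout over wildtype without valproic acid (y axis) for 10 tested genes on each side of Htr3a on chromosome 9 (upper panel) and of Mzt1 on chromosome 14 (lower panel), in gene order, with lines for 95% intervals and red for genes past the test. Triangles at the upper edge stand for Gm32335 and Htr3b, which had 0 counts in wildtype and are placed off scale without an interval. Zbtb16 to Usp28 form the only run of called genes, and Mzt1 is the only called gene in the lower panel.

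Mzt1 encodes a small protein of the gamma-tubulin ring complex, which starts new microtubules at centrosomes and elsewhere in the cell. It was at 112, 110 and 121 CPM in wildtype and 50.5, 57.0 and 56.1 CPM in knockout. The groups did not overlap, and Mzt1 fell by 1.07 on the log2 scale (95% interval -1.22 to -0.92, edgeR adjusted p = 1.2e-09). With any single library left out the value was -1.10 to -1.01. None of its 20 tested neighbours passed, with a median of 0.05 and a range from -0.49 to 0.40. The lowest of these was Klhl1, a neuronal actin-binding protein, which ranged from 3.94 to 5.82 CPM in wildtype libraries and from 2.97 to 3.63 CPM in knockout libraries (log2 -0.49, -0.98 to 0.01). Those groups did not overlap, as for 3.81% of all tested genes with the knockout lower. The interval of Klhl1 reaches past the end of -0.92 for Mzt1, so a fall of that size in Klhl1 is not excluded. Of 632 tested genes on chromosome 14, Mzt1 alone passed.

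Of 25 tested genes of this complex and its recruiters Mzt1 alone passed, 12 of the 25 were positive and 13 negative, and the median was 0.00. Mzt2, the other small subunit of this kind, was at 20.9, 19.8 and 24.4 CPM in wildtype and 22.0, 18.6 and 18.3 CPM in knockout (log2 -0.14, -0.36 to 0.08). Tubg2, a gamma-tubulin expressed in brain, was at 52.2, 54.8 and 50.5 CPM in wildtype and 52.0, 47.6 and 46.0 CPM in knockout (log2 -0.11, -0.26 to 0.03). Tubgcp5, a scaffold subunit, had a log2 fold change of 0.12 (-0.09 to 0.33). Haus1, of the augmin complex that recruits the ring to existing microtubules, was at 9.62, 9.77 and 10.7 CPM in wildtype and 11.2, 11.1 and 12.1 CPM in knockout, without overlap (log2 0.19, -0.05 to 0.43). A share of 3.58% of all tested genes had the knockout higher without overlap. The intervals of Mzt2, Tubg2, Tubgcp5 and Haus1 lie wholly above that of Mzt1.

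ENSMUSG00002076173 has no symbol in the annotation used. It was at 5.51, 9.65 and 8.78 CPM in wildtype and 3.49, 4.01 and 3.35 CPM in knockout, without overlap. It fell by 1.13 on the log2 scale (-1.56 to -0.69), with an edgeR adjusted p of 0.0478 that lies just inside the threshold. With the replicate number as a block the adjusted p was 0.143 and the count of lower genes fell from 2 to 1. The call was also lost without wildtype replicate 2 (adjusted p = 0.401) or 3 (0.377) and without knockout replicate 1 (0.264), 2 (0.217) or 3 (0.561), so it rests on each of these libraries. It passed in 7 of 16 other fits.

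**Figure D2:**
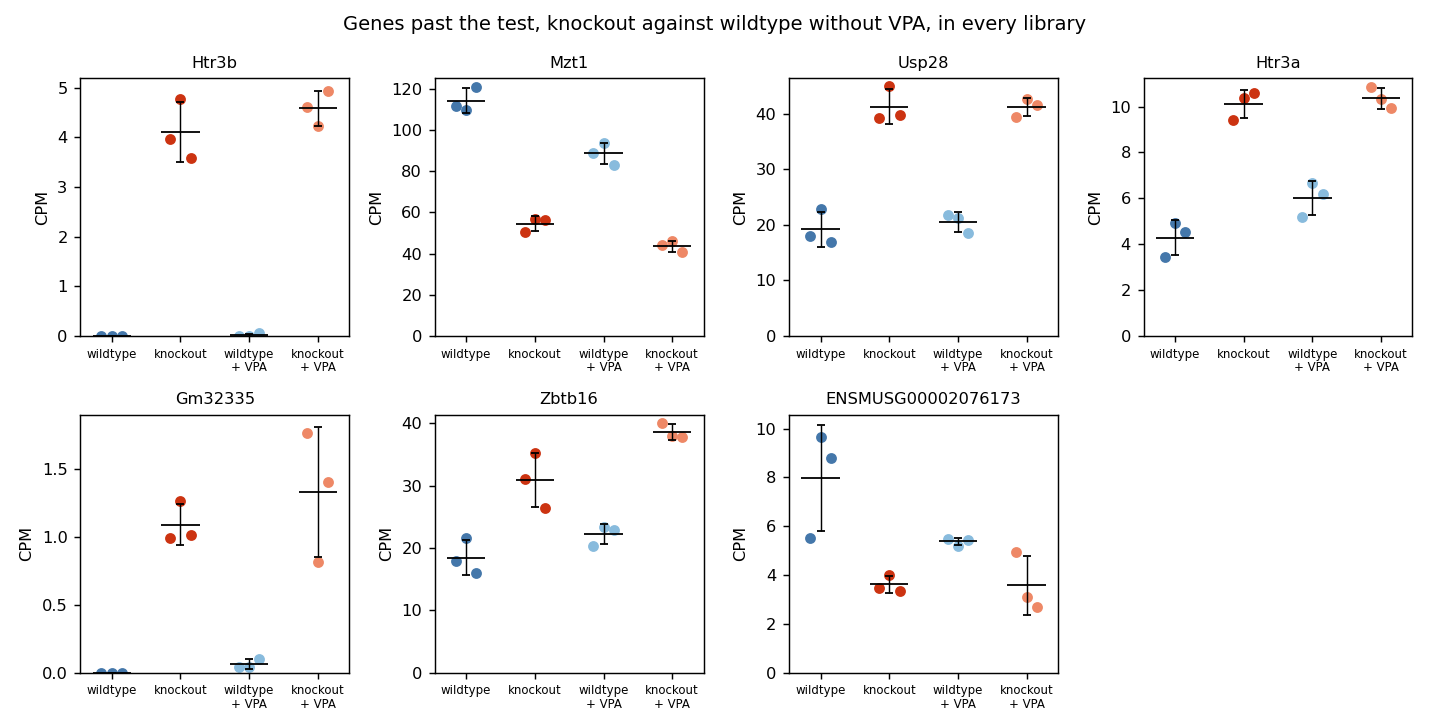
CPM (y axis, linear from 0) of the 7 genes past the test without valproic acid, 1 panel per gene, with a point for each of 3 libraries per group, a bar for the mean and whiskers for 1 SD; VPA is valproic acid. Htr3b and Gm32335 are at 0 in wildtype, Mzt1 is above 100 CPM in wildtype and below 60 in knockout, and the 2 groups on the right show the same genes after exposure.

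The same difference was measured in the 6 exposed libraries, which share no library with the unexposed comparison though they share the fitted spread. There 9 genes passed (0.05%), and 6 of the 7 genes named above were among them, all in the same direction. The groups of all 7 were separate there, on the same side as without exposure; over all tested genes 6.96% were separate with the knockout higher and 6.23% with it lower. Htr3a was at 5.19, 6.67 and 6.17 CPM in exposed wildtype and 10.9, 10.3 and 9.94 CPM in exposed knockout. Its rise there was 1.72-fold, and the difference between the log2 changes was -0.46 ± 0.21 (SE, edgeR adjusted p = 0.833). Mzt1 was at 88.9, 93.7 and 83.3 CPM in exposed wildtype and 43.9, 46.1 and 40.7 CPM in exposed knockout. Its log2 changes in the comparisons were -1.07 and -1.03, and differed by 0.04 ± 0.10 (SE). Zbtb16 had log2 changes of 0.75 and 0.80, and Usp28 rose 2.16-fold and 2.01-fold. Htr3b had 281 counts in exposed knockout and 1 in exposed wildtype (ratio 316, 95% counting interval 56.2 to 12508). ENSMUSG00002076173 was at 5.47, 5.20 and 5.46 CPM in exposed wildtype and 4.94, 3.12 and 2.68 CPM in exposed knockout, without overlap (log2 -0.60, edgeR unadjusted p = 0.0101, adjusted p = 0.51). For the difference between the comparisons, 0 genes passed edgeR's test, DESeq2 and limma-voom gave 0, and 1075 genes (5.97%) had an unadjusted p under 0.05.

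The genes with the next smallest p-values are described although none passed; the lowest adjusted p among them was 0.9996. The 10 with higher values in the knockout included Rps29, Rps28 and Rpl38 (ribosomal proteins), Atp5k, Ndufa5 and Uqcrb (subunits of the respiratory chain and ATP synthase), mt-Th (a mitochondrial transfer RNA), Taf15 (an RNA-binding protein) and Mylk3 (a myosin kinase). Rps29 was at 371, 390 and 426 CPM in wildtype and 475, 492 and 594 CPM in knockout (log2 0.40, 0.19 to 0.60). It passed with no count filter (edgeR adjusted p = 0.00107) and in the fit of the 6 unexposed libraries with the replicate number as a block (0.0206), and not in that fit without the block (0.173) or with the block over all 12 libraries (0.477). The transfer RNA mt-Th was at 4.43, 4.47 and 5.61 CPM in wildtype and 9.85, 11.04 and 9.15 CPM in knockout (log2 1.05, 0.53 to 1.57), and passed under DESeq2, with no count filter and in fits of the 6 unexposed libraries alone. Groups did not overlap for 9 of the 10, which were picked for their p-values in this comparison. Ribosomal protein genes have near-identical pseudogenes between which the authors' counting could split reads, so their values are uncertain.

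In the exposed libraries, which were not ranked for that choice though they entered the shared spread of the fit, 9 of these 10 again had a positive log2 fold change. Over all tested genes 47.5% had the same sign in both comparisons. The median of the 10 was 0.30 without and 0.26 with valproic acid. An unadjusted p under 0.05 was found for 4 of them in the exposed libraries, Rps29, Atp5k, Rps28 and Rpl38, against 7.44% of all tested genes, and 0 passed after adjustment. Rps28 was at 0.29 in both comparisons and Rpl38 at 0.26 and 0.27. In the exposed libraries the median of all 77 tested ribosomal protein genes was itself 0.21, and these 3 members were not tested against it.

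The 10 genes with lower values behaved otherwise. They included Slc22a2 (an organic cation transporter), Arhgef19 (a guanine nucleotide exchange factor), Rxrg (a retinoid receptor), Anln (anillin, an actin-binding protein), Sec14l3 (a lipid-binding protein), Etnk2 (an ethanolamine kinase), Tnnt2 (cardiac troponin T), Spi1 (a transcription factor of microglia) and Chml (a Rab escort protein). Rxrg was at 42.4, 42.9 and 39.2 CPM in wildtype and 37.9, 28.5 and 32.5 CPM in knockout (log2 -0.33). Spi1 was at 5.55, 6.3997 and 6.48 CPM in wildtype and 4.57, 3.83 and 4.54 CPM in knockout (log2 -0.51). Both pairs of groups were separate without valproic acid. In the exposed libraries 4 of the 10 kept a negative value, 1 had an unadjusted p under 0.05, and the median moved from -0.56 to 0.04. That one was Rxrg, with the opposite sign (log2 0.22, -0.33 without exposure). Slc22a2 was at -1.22 and 0.62.

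**Figure D3:**
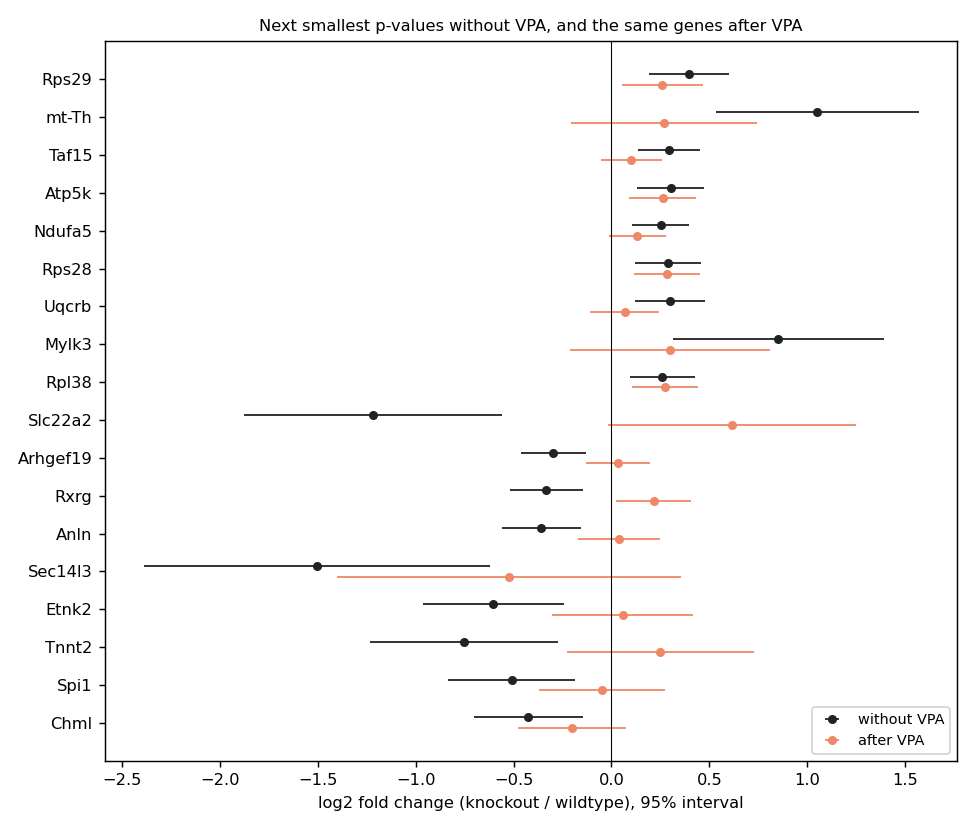
Log2 fold change of knockout over wildtype (x axis) with 95% intervals for 9 of the 10 next-ranked genes with higher and 9 of the 10 with lower values in the unexposed knockout, without valproic acid (black) and after it (orange); VPA is valproic acid. None passed the test; the upper genes drawn keep a positive value after exposure, while most of the lower genes drawn do not keep a negative one.

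The respiratory chain and ribosome were then counted as whole lists, which were chosen with earlier results of these data known. Ndufa5, Uqcrb, Rps29, Rps28 and Rpl38, ranked above for their p-values, are members. The counts of small p-values below are therefore not independent of that ranking. Of 71 nuclear genes of oxidative phosphorylation, 0 passed, 47 were positive and the median was 0.04. An unadjusted p under 0.05 with a higher value in knockout was found for 11 of the 71, against 1.74% of all tested genes, and with a lower value for 0. Ndufs5, of complex I, was at 117, 117 and 134 CPM in wildtype and 151, 130 and 145 CPM in knockout (log2 0.21, 0.06 to 0.35). Uqcr11, of complex III, was at 163, 174 and 183 CPM in wildtype and 198, 175 and 219 CPM in knockout (log2 0.19). For both genes the groups overlapped at their edges, and the mean of the list was 7.28, 7.30 and 7.42 log2 CPM in wildtype and 7.41, 7.32 and 7.43 in knockout. The list median was 0.00 without wildtype replicate 1 and 0.08 without wildtype replicate 3, and 0.16 in the exposed libraries.

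Of 77 cytosolic ribosomal protein genes 0 passed. At an unadjusted p under 0.05, 8 were higher, against 1.74% of all tested genes, and 0 were lower, against 1.38%. Rpl37 was at 409, 412 and 440 CPM in wildtype and 466, 470 and 535 CPM in knockout, without overlap (log2 0.22, 0.06 to 0.38). As a whole the list had a median of 0.01, with 41 positive and 36 negative, and -0.01 to 0.04 with single libraries left out. Its median in the exposed libraries was 0.21. Of 15 genes of the mitochondrial genome, 12 were positive and the median was 0.05. Its member with the smallest p was mt-Co2, at 1213, 930.5 and 798 CPM in wildtype and 1322, 1905 and 1283 CPM in knockout (log2 0.62, 0.04 to 1.19). The share of mitochondrial counts was given above and overlapped between the genotypes; its part in these values was not tested.

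The interneuron class marked by Htr3a was read from its other markers. Of 22 tested markers of interneurons from the caudal ganglionic eminence, 0 passed, 12 were positive, 0 had an unadjusted p under 0.05 and the median was 0.02. Over all tested genes 0.0389% passed and 3.13% had such a p, so counts of 0 among 22 genes are near those shares. Vip, a peptide of disinhibitory interneurons, was at 21.8, 25.8 and 24.8 CPM in wildtype and 25.4, 25.5 and 27.6 CPM in knockout (log2 0.12, -0.10 to 0.33). Lamp5, of neurogliaform cells, was at 106, 100.4 and 94.96 CPM in wildtype and 135, 103 and 89.9 CPM in knockout (log2 0.12, and -0.06 without knockout replicate 1). The knockout values spanned those of wildtype for Lamp5. Of 18 markers of interneurons from the medial ganglionic eminence 0 passed, with a median of 0.02. Gad1, which makes GABA, was at 207, 206 and 302 CPM in wildtype and 222, 223 and 242 CPM in knockout (log2 -0.06, and 0.15 without wildtype replicate 3).

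The serotonin list held receptors, synthesis enzymes and transporters. Of its 21 tested genes Htr3a and Htr3b passed, 9 were positive and the median was -0.05. Htr1f, a receptor coupled to Gi proteins, was at 1.57, 1.93 and 1.48 CPM in wildtype and 1.74, 0.991 and 1.08 CPM in knockout (log2 -0.37, -0.98 to 0.24). Htr5b, another serotonin receptor, had a log2 fold change of -0.52 (-1.18 to 0.15). Maoa, which degrades serotonin, was at 36.8, 32.8 and 41.1 CPM in wildtype and 40.0, 41.6 and 41.0 CPM in knockout (log2 0.15, -0.02 to 0.31). The 2 ranges overlapped.

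**Figure D4:**
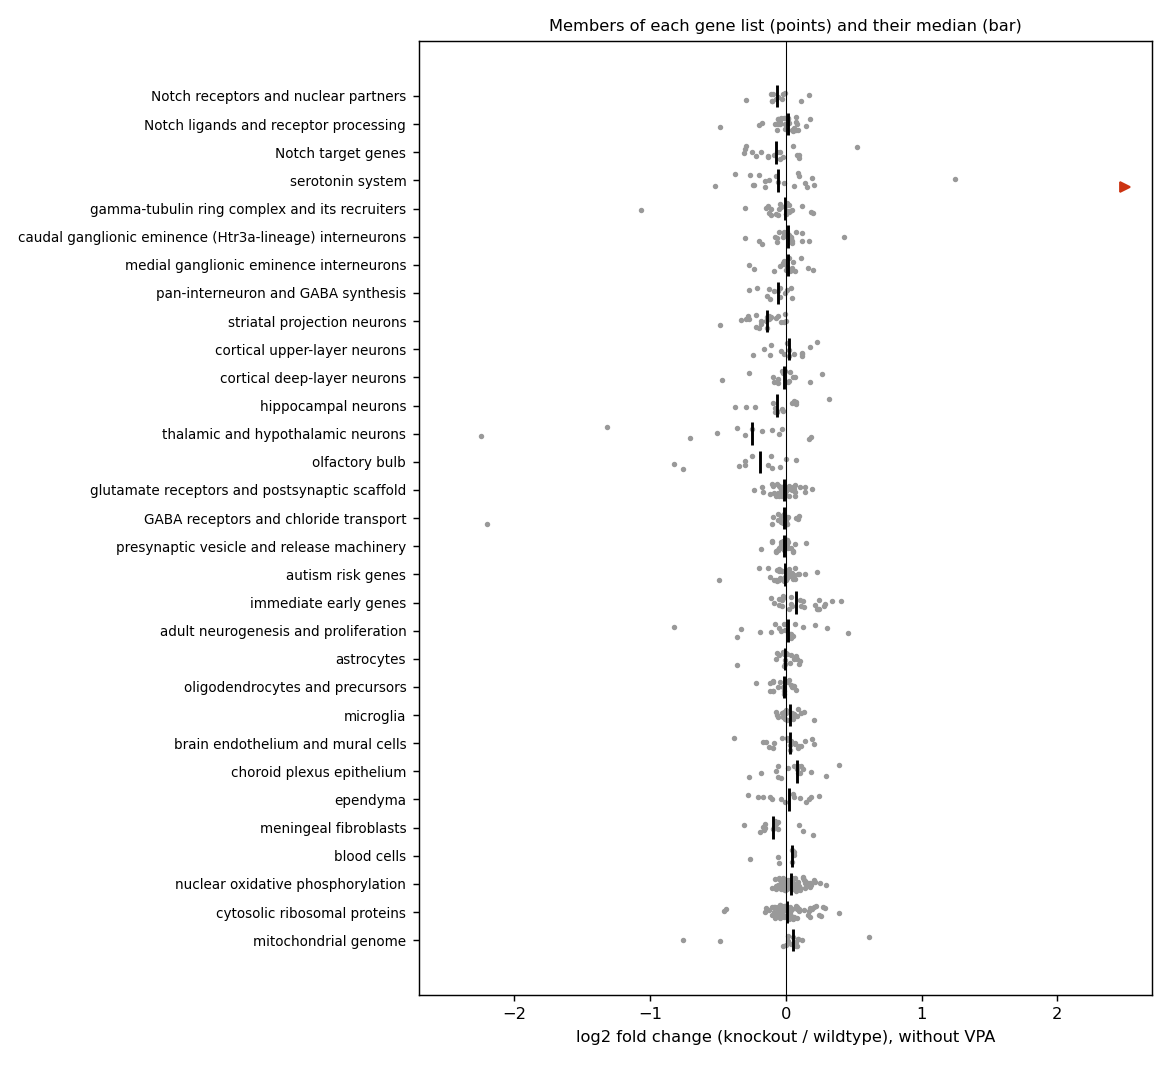
Log2 fold change of knockout over wildtype without valproic acid (x axis) for every tested member (points) of 31 gene lists, with a bar at each list's median; the red arrow is Htr3b, which lies beyond the axis. The striatal, olfactory bulb and thalamic and hypothalamic lists lie to the left, and the other lists centre within 0.1 of 0. Htr3a and Htr3b are the only genes past the test in the serotonin list, and Mzt1 is the only one in its list.

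Marker lists of 3 forebrain regions had medians below -0.1 and 1 library or more stood apart in each. Striatal projection neurons receive dopamine input and are marked by dopamine receptors and opioid peptides. Of 23 tested markers 0 passed, 1 was positive, 22 were negative, 4 had an unadjusted p under 0.05 with a lower value (background 1.38%) and the median was -0.14. The mean of the list was 5.76, 5.83 and 5.83 log2 CPM in wildtype and 5.91, 5.54 and 5.42 in knockout, so knockout replicate 1 was above every wildtype library and replicates 2 and 3 below. Without knockout replicate 1 the median was -0.37, and without replicate 3 it was -0.05. Drd1, the D1 dopamine receptor, shows the pattern, at 47.4, 51.0 and 49.1 CPM in wildtype and 51.4, 39.9 and 34.9 CPM in knockout. Six3, a transcription factor of striatal development, was at 11.8, 11.7 and 15.7 CPM in wildtype and 11.4, 9.69 and 6.82 CPM in knockout, without overlap (log2 -0.48, -0.81 to -0.15, edgeR adjusted p = 0.9996). In the exposed libraries the list's median was 0.13, on the other side of 0.

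Olfactory bulb markers differed widely between replicates within each genotype. The list's mean was 4.11, 4.16 and 5.78 log2 CPM in wildtype and 4.21, 4.67 and 5.26 in knockout. Cdhr1, a cadherin of bulb projection neurons, was at 5.07, 5.57 and 37.1 CPM in wildtype and 4.76, 9.19 and 24.7 CPM in knockout. Replicate 3 was the highest in each genotype, and the list's median of -0.19 became 0.48 without wildtype replicate 3 and -0.48 without knockout replicate 3. Thalamic and hypothalamic markers had means of 2.73, 3.01 and 4.17 in wildtype and 2.81, 3.28 and 3.13 in knockout, and a median of -0.25 that became 0.11 without wildtype replicate 3 and -0.39 without wildtype replicate 2. Oxt, the gene of oxytocin, was at 0.241, 5.02 and 28.7 CPM in wildtype and 0.377, 3.92 and 2.93 CPM in knockout. Of the 12 tested olfactory bulb and 13 thalamic and hypothalamic markers, 0 passed. The part of these regional differences in the striatal values was not tested.

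**Figure D5:**
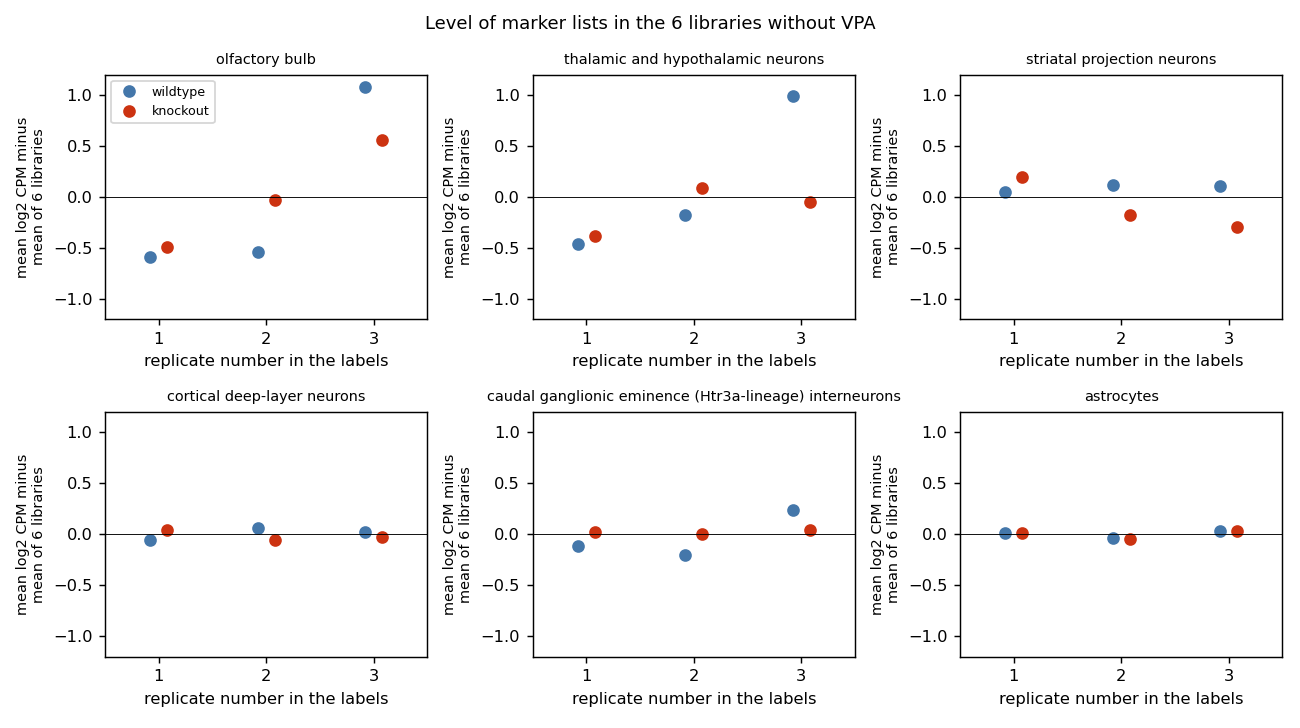
Mean log2 CPM of 6 marker lists in each unexposed library, minus the mean of the 6 libraries (y axis), against the replicate number in the labels (x axis), with wildtype in blue and knockout in red; VPA is valproic acid. Olfactory bulb markers are highest in replicate 3 of both genotypes, striatal markers are lowest in knockout replicates 2 and 3, and astrocyte markers stay within 0.1 of 0.

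Glial, vascular and synaptic lists gave 0 calls. The median was 0.00 for 18 astrocyte genes, -0.02 for 20 oligodendrocyte genes, 0.03 for 20 microglial genes and 0.03 for 20 genes of endothelium and mural cells. Olig1, a transcription factor of the oligodendrocyte lineage, was at 120, 110 and 125 CPM in wildtype and 114, 93.8 and 96.8 CPM in knockout (log2 -0.22, -0.37 to -0.07, edgeR unadjusted p = 0.00641, adjusted p = 0.9996). Those groups overlapped. Choroid plexus genes had a median of 0.09 over 17 genes, and means of 3.91, 4.39 and 4.20 log2 CPM in wildtype and 4.23, 4.22 and 4.22 in knockout. Among cortical markers, Fezf2, which specifies deep-layer output neurons, was at 23.2, 24.3 and 22.2 CPM in wildtype and 27.6, 30.9 and 24.99 CPM in knockout, without overlap (log2 0.27, 0.08 to 0.45, adjusted p = 0.9996). The 15 upper-layer and 17 deep-layer markers had medians of 0.03 and -0.01.

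The median was -0.01 for 38 glutamate receptor and scaffold genes, 30 presynaptic genes, 40 autism risk genes and 20 GABA receptor and chloride transport genes. Gabre, the epsilon subunit of the GABA-A receptor, was at 0.483, 0.497 and 1.999 CPM in wildtype and 0.377, 0.180 and 0.0598 CPM in knockout, without overlap (log2 -2.20, -3.65 to -0.74, edgeR unadjusted p = 0.00262, adjusted p = 0.9996). Wildtype replicate 3 was again the highest library, and without it the log2 fold change was -1.17. Of 26 immediate early genes, which are induced within minutes of neuronal activity, 17 were positive and the median was 0.07. Gadd45b, a stress- and activity-induced regulator of DNA demethylation, was at 11.7, 10.6 and 10.3 CPM in wildtype and 13.6, 13.4 and 14.5 CPM in knockout, without overlap (log2 0.34, 0.07 to 0.61, adjusted p = 0.9996).

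A gene that misses the test may still differ, and the intervals give the sizes that remain possible. Of 17987 genes that did not pass and have an interval, 68.5% had a 95% interval wholly within a 1.5-fold change in either direction and 83.6% within 2-fold. Between 10 and 100 CPM these shares were 98.5% and 99.7%. Between 1 and 10 CPM they were 47.8% and 88.7%, and below 1 CPM 0% and 14.7%. Hes7, a target gene at 0.331 to 0.989 CPM, is an example of the last kind (log2 0.53, -0.36 to 1.41), with an interval that reaches beyond 2-fold. Genes switched fully on or off were searched among all 56748. With 0 counts in every wildtype library and at least 2 in every knockout library there were 12, of which Htr3b and Gm32335 were tested and the highest of the others had 16 counts over the group. In the opposite direction there were 18, with 0 tested and at most 15 counts.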

How the data were processed

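Per the labels, brain RNA was purified on columns, depleted of ribosomal RNA and made into libraries with an NEBNext Ultra kit. The submitters' processing notes name HISAT2 and GRCm39 (mm39). How reads were counted, with which annotation and strand setting, is not given in the sources used. The authors deposited raw counts for each Ensembl gene, without normalisation. Symbols, chromosomes and gene order came from GENCODE M21 on GRCm38, matched by identifier for 52125 genes holding 99.5% of counts. Promoter letters came from RefSeq (GRCm38.p6).

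The software was edgeR 4.0.16 for the main test, DESeq2 1.42.0 and limma 3.58.1 for alternatives (R 4.3.3), and Python 3.11.15. Of 56748 genes, 17995 passed filterByExpr. All 12 libraries entered a robust quasi-likelihood fit with a mean for each group and TMM factors, and contrasts were tested two-sidedly, with p-values adjusted by Benjamini-Hochberg across the tested genes (0.05). Intervals (95%) come from the fit's own standard errors; CPM use TMM-scaled library sizes, and log2 CPM a prior count of 2. In simulated data with 17995 genes, 200 genes at 1 CPM or more were changed, and counts were drawn independently with the fitted spread. The unexposed comparison recovered 67.2% of genes changed 1.5-fold, 89.6% at 2-fold and 97% at 4-fold, with 0 in the wrong direction. The 95% intervals held the true change for 95.5%, 92.5% and 92.4% of them. Changes below 1 CPM and differences shared by many genes of a library were not simulated. No 2 libraries of a group agreed within sampling noise (chi-square per degree of freedom 4.74 to 22.5).

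Named were all genes past the test, the 10 next smallest p-values in each direction at a mean of at least 1 CPM without predicted or unnamed genes, Notch1 to Notch4, Rbpj, Htr3a, 10 tested genes on each side of Htr3a and Mzt1, and up to 4 members of each list with the smallest p; Hes1, Hes5, Mzt2, Tubgcp5, Lamp5, Gad1, Htr1f, Htr5b, Drd1, Cdhr1, Uqcr11, Lars2 and ENSMUSG00000119584 lie outside that rule and were chosen after their values were seen. The gene lists and this rule were chosen with earlier results of these data known. The labels do not say what a replicate number stands for. Once group means were subtracted, wildtype and knockout libraries of the same number correlated at 0.144, 0.135 and 0.183 over 15278 genes. Those of different numbers correlated at -0.144 to -0.004. Subtracting the mean of so few libraries itself pushes the latter below 0, so these values cannot settle whether the numbers pair the libraries. The main test therefore treats the libraries as unpaired, and the replicate number enters only as a block. This evidence comes from the data, and the block is an alternative fit. Other settings were other scalings, filters, tests and sets of libraries. A few results the rule takes are not reported here.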

Additional observations from a re-analysis of the deposited data

How the results depend on the processing

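Htr3b, Mzt1, Usp28, Htr3a, Gm32335 and Zbtb16 passed in all 16 other fits of the unexposed comparison, and Zbtb16 fell short of an absolute log2 change of at least 1. The count of higher genes, 5, was 9 with no count filter and 8 in the fit of only the 6 unexposed libraries with a replicate block. The count of lower genes, 2, was 1 with upper-quartile factors, a filter at 1 CPM, limma-voom or the replicate block, 6 with no count filter, and 4 in the fit of only the 6 unexposed libraries, in that fit with the block, and without both libraries that lack Xist (replicate 3 of each exposed group). The fit of 6 libraries with the block and the one without those 2 libraries were chosen after seeing the data. With single libraries left out it was 1 to 3, and 1 without wildtype replicate 3 or knockout replicate 1, 2 or 3. In the 12-library fit the replicate block changed no unexposed call but that of ENSMUSG00002076173, and in the fit of the 6 unexposed libraries it added Rps29. The exposed counts of 7 higher and 2 lower genes were 38 and 22 with no filter, 16 and 9 under DESeq2, 20 and 9 without both libraries lacking Xist, and 4 and 1 at an absolute log2 change of at least 1. The interaction count of 0 was 5 with no filter, 4 without both libraries lacking Xist and at most 1 with single libraries left out (without knockout replicate 1). Genes that did not pass and changed sign with single libraries left out were Notch1 (-0.11 to 0.035), Rbpj (-0.081 to 0.039), Hes5 (-0.57 to 0.10), Lamp5 (-0.062 to 0.24), Gad1 (-0.15 to 0.15) and Cdhr1 (-1.19 to 1.25). List medians in those fits ran from -0.12 to 0.00054 for serotonin, -0.055 to 0.023 for the gamma-tubulin ring complex, -0.37 to -0.052 for striatal, -0.028 to 0.069 for upper-layer, -0.074 to 0.018 for deep-layer, -0.11 to 0.022 for hippocampal and -0.017 to 0.051 for astrocyte genes. The cause of these changes was not tested. Depth limits genes under 1 CPM, of which 0% had an interval within 1.5-fold.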

Other observations

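Lars2, the mitochondrial leucyl transfer RNA synthetase, was at 304, 259 and 310 CPM in wildtype and 190, 161 and 164 CPM in knockout, without overlap (log2 -0.76). It did not pass the 12-library fit (edgeR adjusted p = 0.9996). It passed in the fit of the 6 unexposed libraries alone, with or without the replicate block, and without both libraries that lack Xist. In the exposed libraries it was at 160.5, 184 and 221 CPM in wildtype and 234, 199 and 127 CPM in knockout, and overlapped (log2 -0.01). ENSMUSG00000119584, which has no symbol in the annotation used, was also lower in the unexposed knockout without overlap. It passed in the same fits as Lars2. It was at 5435, 4790.4 and 5713 CPM in wildtype and 2997, 2712 and 2114 CPM in knockout (log2 -1.03, adjusted p = 0.9996 in the 12-library fit), and at 2590.3, 2573 and 3417 CPM in exposed wildtype and 3387, 2837 and 1593 CPM in exposed knockout. For both genes the unexposed wildtype libraries were the highest of the 4 groups.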
